A study of Mus musculus with 2 samples.

Results

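Dense clusters of EP300 peaks in the newborn mouse heart are stretches of a chromosome where 5 or more peaks follow each other closely. EP300 binding was measured by ChIP-seq in whole heart tissue at postnatal day 0 in mice of the strain labelled B6NCrl, in 2 replicates of 1 group. The labels name no treatment, mutation or transgene, and the sex was not collected. They call the replicates biological but give both the same biosample and donor identifiers, so the spread between them may be technical, and whole tissue does not tell which heart cells hold a peak. The members were selected by the measured positions of the peaks. In the optimal list, which the submitters kept by irreproducible discovery rate (IDR) thresholding, peaks of chromosomes 1 to 19 were sorted by summit, neighbouring summits at most 10 kb apart were joined, and clusters of at least 5 peaks were kept. This left 299 dense clusters with 2035 of 17169 peaks, or 11.9% (exact 95% interval 11.4% to 12.3%), and 12% of the summed peak signal. The number of peaks and the closeness of their summits are therefore given as a description, without a test.

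EP300 (p300) is a histone acetyltransferase without sequence-specific DNA binding. It is brought to enhancers and promoters by transcription factors, where it acetylates histones and helps to recruit the transcription machinery. In heart muscle it acts with factors such as GATA4, MEF2 and serum response factor. Runs of closely spaced enhancers near genes of cell identity are often described as enhancer clusters.

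The sequences that follow are 150 bp of the GRCm38 (mm10) reference centred on EP300 summits of dense clusters. They show the DNA under the strongest sites and are referred to beside the results. The first set holds 7 of the 9 distal sites of dense clusters with a signal of at least 120 whose 200 bp window matched the palindrome of the glucocorticoid, mineralocorticoid, androgen and progesterone receptors. Capitals mark that palindrome, GNACA and TGTNC separated by 3 bases, which reads alike on both strands. A match was found within 75 bp of the summit at 3.04% of 9553 distal sites of all classes.

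Zbtb16 site 1, chr9:48723701-48723850, plus strand: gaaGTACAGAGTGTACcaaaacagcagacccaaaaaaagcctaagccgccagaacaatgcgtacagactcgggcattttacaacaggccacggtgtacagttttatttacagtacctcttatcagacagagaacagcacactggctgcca
Zbtb16 site 2, chr9:48740215-48740364, plus strand: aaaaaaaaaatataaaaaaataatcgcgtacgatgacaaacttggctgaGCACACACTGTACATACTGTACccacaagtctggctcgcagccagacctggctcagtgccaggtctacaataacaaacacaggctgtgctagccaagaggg
Zbtb16 site 3, chr9:48737574-48737723, plus strand: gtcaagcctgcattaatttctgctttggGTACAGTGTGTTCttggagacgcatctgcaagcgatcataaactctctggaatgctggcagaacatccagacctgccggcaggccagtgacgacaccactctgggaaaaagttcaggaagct
Per1, chr11:69096997-69097146, plus strand: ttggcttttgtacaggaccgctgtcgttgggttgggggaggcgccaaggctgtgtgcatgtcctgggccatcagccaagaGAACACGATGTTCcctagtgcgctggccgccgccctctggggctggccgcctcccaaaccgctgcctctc
Per2, chr1:91436421-91436570, plus strand: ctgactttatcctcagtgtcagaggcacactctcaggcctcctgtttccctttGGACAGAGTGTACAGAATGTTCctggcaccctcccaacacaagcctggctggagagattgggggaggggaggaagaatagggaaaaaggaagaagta
Fkbp5, chr17:28420266-28420415, plus strand: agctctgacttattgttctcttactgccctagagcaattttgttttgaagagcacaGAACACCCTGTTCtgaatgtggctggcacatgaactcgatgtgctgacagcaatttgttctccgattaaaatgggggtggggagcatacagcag
Ddit4, chr10:59974215-59974364, plus strand: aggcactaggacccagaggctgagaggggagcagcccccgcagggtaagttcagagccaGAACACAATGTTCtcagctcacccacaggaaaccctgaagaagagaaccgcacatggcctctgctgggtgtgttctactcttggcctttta

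Zbtb16 site 2 and the Per2 site each held a pair of overlapping matches, which appear as 1 longer run of capitals. Per1, Fkbp5 and Ddit4 had the form GAACA on one side and TGTTC on the other. The Ddit4 site was intergenic, 22455 bp from the nearest transcription start site (TSS) of Ddit4. The other sites of the set were intronic.

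The second set shows sites of clusters named by genes of heart muscle and endothelium, with other motifs in capitals. The motifs were searched on both strands and are given in the orientation found. They were GGAATG for TEAD factors, CAGGAAG for ETS factors, CAGCTG for basic helix-loop-helix dimers, TGACAG for MEIS, AGATAA for GATA factors, CACTTNA for NKX2 factors, and the MEF2 consensus. In 150 bp windows these matched 15.0%, 16.8%, 17.6%, 17.8%, 15.1%, 9.13% and 6.37% of all distal sites, so that a match to 1 of them is common.

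Myh6, chr14:54968429-54968578, plus strand: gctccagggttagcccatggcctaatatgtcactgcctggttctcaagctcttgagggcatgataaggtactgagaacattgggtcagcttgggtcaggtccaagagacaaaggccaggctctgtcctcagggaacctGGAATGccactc
Tnnt2, chr1:135862194-135862343, plus strand: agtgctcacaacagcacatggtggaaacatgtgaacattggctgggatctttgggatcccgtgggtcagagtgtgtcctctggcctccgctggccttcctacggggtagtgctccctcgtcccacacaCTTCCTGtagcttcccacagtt
Myl2, chr5:122094611-122094760, plus strand: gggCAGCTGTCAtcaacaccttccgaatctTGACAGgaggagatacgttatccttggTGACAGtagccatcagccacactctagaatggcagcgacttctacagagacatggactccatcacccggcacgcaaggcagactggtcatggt
Crip2, chr12:113137909-113138058, plus strand: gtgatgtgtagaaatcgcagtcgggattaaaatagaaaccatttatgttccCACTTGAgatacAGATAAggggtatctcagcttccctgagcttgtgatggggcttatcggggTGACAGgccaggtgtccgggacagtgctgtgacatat
Egfl7, chr2:26578563-26578712, plus strand: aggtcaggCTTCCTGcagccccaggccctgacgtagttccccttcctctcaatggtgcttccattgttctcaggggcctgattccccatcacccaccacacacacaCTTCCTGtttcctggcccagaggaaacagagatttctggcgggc
Nmrk2, chr10:81194570-81194719, plus strand: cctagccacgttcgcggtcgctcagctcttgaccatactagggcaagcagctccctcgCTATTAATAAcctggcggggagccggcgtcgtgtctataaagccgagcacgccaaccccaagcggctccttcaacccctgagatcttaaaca
Pln, chr10:53324802-53324951, plus strand: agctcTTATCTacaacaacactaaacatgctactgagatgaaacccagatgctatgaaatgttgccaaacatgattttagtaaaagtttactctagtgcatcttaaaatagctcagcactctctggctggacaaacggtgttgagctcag
Rbm20, chr19:53716675-53716824, plus strand: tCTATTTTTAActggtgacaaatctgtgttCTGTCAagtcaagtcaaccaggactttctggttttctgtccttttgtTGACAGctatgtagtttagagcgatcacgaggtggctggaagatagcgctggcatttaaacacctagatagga
Myh7, chr14:54996850-54996999, plus strand: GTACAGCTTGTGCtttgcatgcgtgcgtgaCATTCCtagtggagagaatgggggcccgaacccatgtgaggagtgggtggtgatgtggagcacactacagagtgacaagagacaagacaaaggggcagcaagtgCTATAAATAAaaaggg

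The Myl2 window held CAGCTG and TGACAG sharing 3 bases, and 2 further TGACAG matches. The Egfl7 window, upstream of a gene secreted by endothelial cells, held 2 matches to CTTCCTG, the reverse complement of the ETS motif. The Rbm20 window, in an intron of the gene for a splicing regulator of titin, held a MEF2 match and 2 matches to TGACAG. The Myh7 window held a MEF2 match, a TEAD match and the steroid receptor palindrome. The windows shown for Tnnt2, Nmrk2 and Egfl7 are the strongest distal site of each cluster, not the strongest peak, which lay at a promoter. The Nmrk2 window carries only the name of its cluster. Its nearest TSS was that of Dapk3, 4143 bp away. A match describes the letters of the window and does not show that a factor was bound there.

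Clusters at the threshold were the most common. There were 128 clusters of 5 peaks, 55 of 6, 47 of 7 and 69 of 8 or more, up to 29. The median cluster held 6 peaks, spanned 13419 bp from first to last summit (range 1446 to 54991 bp) and had a summed signal of 213 (range 69.4 to 1013). The signal is the value the authors deposited for each peak. Its formula and unit are not given in the sources, so sums and ranks were taken within a list, and values of the replicates stand side by side without a comparison of their size. The strongest peak carried a median of 30% of its cluster's signal, with 11.8% in the Myh6 cluster as the lowest and 62.3% in the Ddx20 cluster as the highest share. Ddx20 (a helicase of the SMN complex) was followed by Chd2 with 60.2%, Pde4dip with 59.2%, Cox20 with 57.6% and Sptbn1 with 55.3%. In these clusters 1 peak carried most of the summed signal. The share also depends on the number of peaks, of which the Myh6 cluster had 29.

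Peaks of a cluster are not all separate sites. Of all 17169 calls, 98.4% had the same width and the others were narrower, down to 124 bp. In dense clusters 596 of the 1736 steps between neighbouring summits (34.3%) were no longer than that common width. After such summits were merged, the 2035 peaks became 1439 sites, and 129 of the 299 clusters (43.1%, exact 95% interval 37.5% to 49.0%) still held 5 or more sites. The cluster at the promoter of Hspa8, the constitutive HSC70 chaperone, held 5 calls within 1446 bp that merged to 1 site. The Myh6 cluster went from 29 peaks to 16 sites, Tnnt2 from 21 to 14, Hspg2 from 18 to 14, Midn from 17 to 13, and Tns1 from 15 to 13. The cluster at Rara, the retinoic acid receptor alpha, held 10 peaks in 10 sites.

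Many members were weak calls. A deposited −log10 q of at least 2 was reached by 53.9% of cluster peaks and by 69.4% of merged sites. It was reached by 57.7% of all peaks and 66.8% of single peaks. Peaks joined in smaller clusters reached it in 51.8%, and their merged sites in 68.9%, so weak calls were not particular to dense clusters. When clusters were built from peaks of that q alone, 70 remained. Of 10 leading clusters, Zbtb16 kept 7 such peaks, Myh6 11, Tnnt2 10, Tns1 11, Txnip 13, Per1 6, Nr1d1 9, Irf2bpl 9, Myl2 7 and Ddit4 6.

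**Figure D1:**
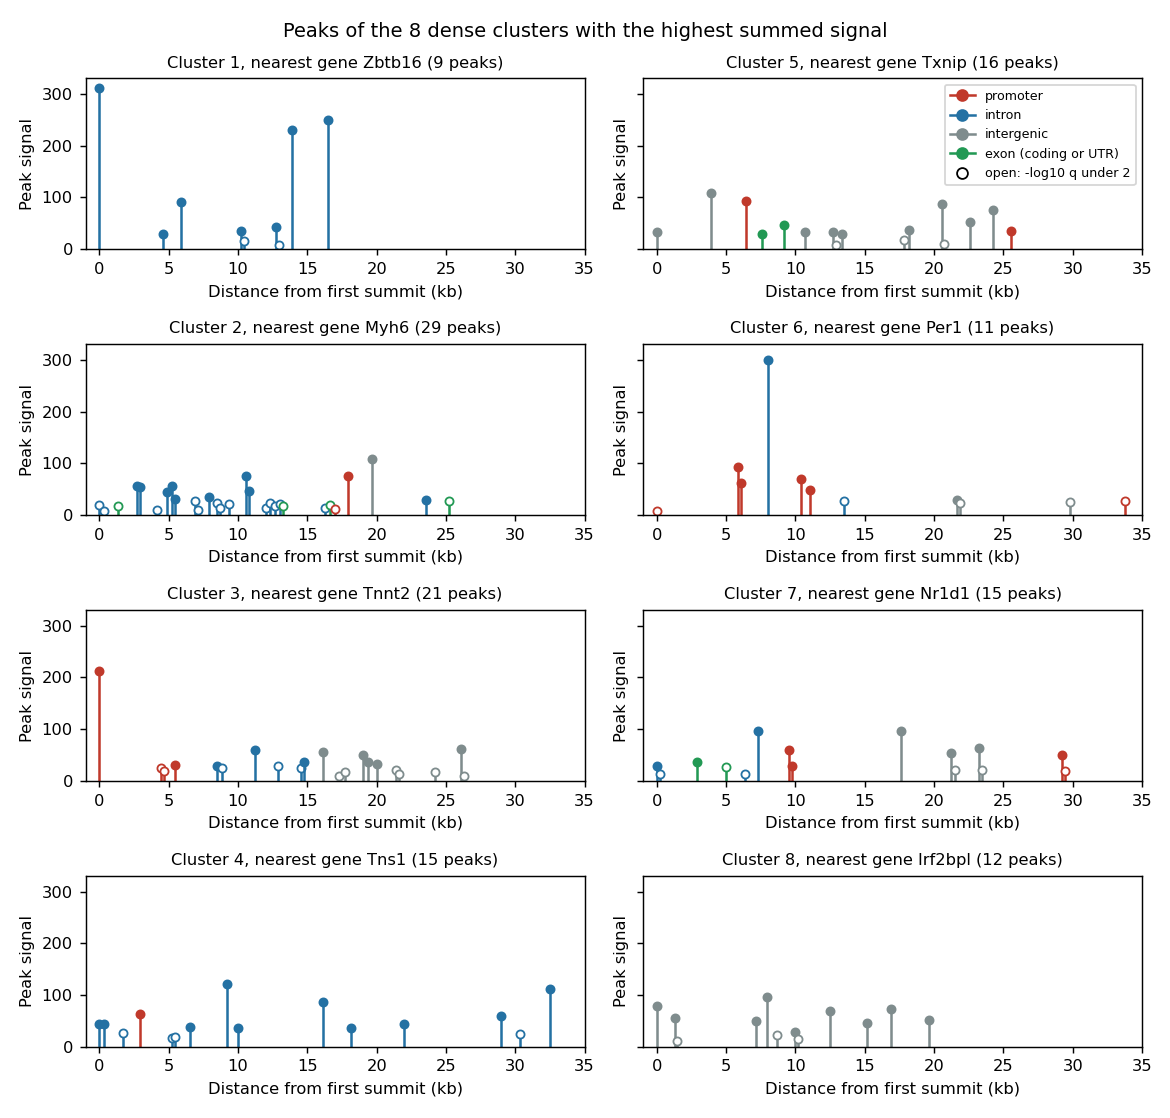
Peaks of the 8 dense clusters with the highest summed signal. Each stick is a peak, its height the authors' signal and its place the distance in kb from the first summit of the cluster. Colours give the position relative to genes and open circles mark a deposited −log10 q below 2. The Zbtb16 and Per1 clusters have single peaks of 311 and 300, whereas the Myh6 cluster reaches 109 with 29 peaks.

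Genes of the contractile apparatus stood near several of the highest clusters. Myh6 encodes the alpha heavy chain of cardiac myosin. Its cluster had a summed signal of 927, with 588 in replicate 1 and 558 in replicate 2, the highest of the 299 clusters in each replicate. Its span held 22 leading peaks of replicate 1 and 28 of replicate 2. Its strongest peak, 109, was 1576 bp from the Myh6 TSS, the promoter itself had 76.1, and an intronic peak within the gene body also had 76.1. Myh7 had a cluster of its own further along the chromosome, with 10 peaks in 7 sites. Myh7 encodes the beta heavy chain, and its cluster had a summed signal of 374, with 318 in replicate 1 and 266 in replicate 2. Among the leading peaks of 1 replicate alone, the peaks of both genes joined to a single cluster, of 41 peaks in replicate 1 and 49 in replicate 2.

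Tnnt2 encodes cardiac troponin T, the tropomyosin-binding subunit of the thin filament. Its cluster had 821 in the optimal list, 484 in replicate 1 and 473 in replicate 2. A promoter peak of 213 led it, and 20 weaker peaks of 8.74 to 61.5 reached through the introns to beyond the end of the gene. Myl2, the ventricular regulatory light chain, had 11 peaks and a summed signal of 589, with 389 and 402 in the replicates. Its strongest peak of 151 lay 6266 bp from the Myl2 TSS, and its window is shown above. Tnni3, cardiac troponin I, had 11 peaks and 436, of which 8 lay at promoters of Tnni3, Tnnt1 and Ppp1r12c. The replicates gave 241 and 223 there.

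The clock and glucocorticoid response genes formed the other prominent group. Zbtb16, a zinc-finger repressor induced by glucocorticoids in many tissues, held the cluster with the highest summed signal. It was 1013 in the optimal list, 552 in replicate 1 and 421 in replicate 2, which ranked 2 and 3 there. Only 9 peaks made up this sum, all in introns of Zbtb16 and none at a promoter, and 3 of them had 311, 250 and 231. Those 3 are the sites of the first sequence set. Per1, a repressor of the circadian clock and a direct glucocorticoid target, had 714 in 11 peaks, with 420 and 352 in the replicates. Its intronic site of 300 carried 42.0% of the sum. Nr1d1, which encodes the clock repressor REV-ERB alpha, had 633 in 15 peaks, with 362 and 322, and no palindrome in the window of its strongest distal site. Per2 had 387 in 5 peaks, with 226 and 204, and Fkbp5, a co-chaperone of steroid receptors, had 311 in 5 peaks, with 183 and 126. Ddit4, an inhibitor of mTORC1 that responds to stress and glucocorticoids, had 588 in 7 peaks, with 379 and 229.

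Genes of actin and cell adhesion held long intronic clusters. Tns1 encodes tensin 1, which links integrins to actin, and had a pair of clusters. The first had 772 in 15 peaks, with 505 in replicate 1 and 269 in replicate 2, and the second had 489 in 14 peaks, with 232 and 174. By summed signal they ranked 4 and 31 in replicate 1 and 13 and 35 in replicate 2. Together 29 peaks in 24 sites were nearest to Tns1, the largest number for any gene. Ablim1 and Mical2, which respectively bind and oxidise actin, had 3 clusters each, with 669 and 697 in all, and Rbm20 had 3 with 877.

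Metabolic, vascular and matrix genes completed the leading clusters. Txnip, an inhibitor of thioredoxin that limits glucose uptake, named a cluster of 16 peaks with 735, and 537.5 and 393 in the replicates. Of these peaks 9, with 417, were nearest to Txnip and 7, with 318, to Gm16253. Slc25a4, the ADP/ATP carrier of heart and muscle mitochondria, had 538 in 9 peaks, of which its promoter gave 223 and a site 5761 bp away 137. Egfl7 had 526 in 8 peaks, with 294 and 271, and its strongest summit stood at rank 1488 of the peaks of replicate 1 and 43 of replicate 2. Hspg2, the basement membrane proteoglycan perlecan, had 581 in 18 peaks, with 327 and 253. Pln, phospholamban, which restrains calcium uptake by SERCA, had 461 in 10 peaks, with 204 and 284, ranks 48 and 11 among the dense clusters of the replicates. Crip2, a LIM protein of heart and vessels, had 568 with 353 and 289.

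Some leading clusters covered many genes, so that a single name says little. The widest cluster, 54991 bp at the histone gene Hist1h4d, crossed TSSs of 14 histone genes with 11 peaks. The cluster at Rplp2, a ribosomal protein gene, had all 11 peaks at promoters of 8 genes. The one named by Naa38 also held Kdm6b, a histone demethylase, and its strongest summit had no match among the leading peaks of replicate 1. The one named by Mrps23 had its strongest peak in an intron of Cuedc1. Sums given above under 1 gene are those of whole clusters, which can hold peaks nearest to other genes. In the Nr1d1 cluster 9 of 15 peaks, with 403 of 633, were nearest to Nr1d1 and 6 to Msl1. In the Per1 cluster 6 of 11 peaks, with 600 of 714, were nearest to Per1. In the cluster named by Gata5, 3 peaks were nearest to Gata5 and 9 to Slco4a1. Other clusters among the 30 highest were named by Irf2bpl, Nmrk2, Tgm2, Gata5, Fhod3, Mcl1, Rara and Rps28, with summed signals from 422 to 599.

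Nearly all spans of dense clusters held a leading peak of each replicate, but a minority held 5 or more of both. At least 1 of the 17372 leading peaks of replicate 1 lay in 298 of the 299 spans, and of replicate 2 in 295. The spans were chosen for 5 or more peaks of a list made from both replicates, and smaller clusters were not counted in this way. At least 5 lay in 150 spans for replicate 1, in 136 for replicate 2, and in 107 (35.8%) for both. The summed signals of the replicates correlated across the 299 clusters (Spearman 0.79, Pearson 0.88), which describes spans that differ in length and come from 1 tissue source. Of the 30 highest clusters, 25 were among the 30 highest in replicate 1, 26 in replicate 2 and 24 in both.

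**Figure D2:**
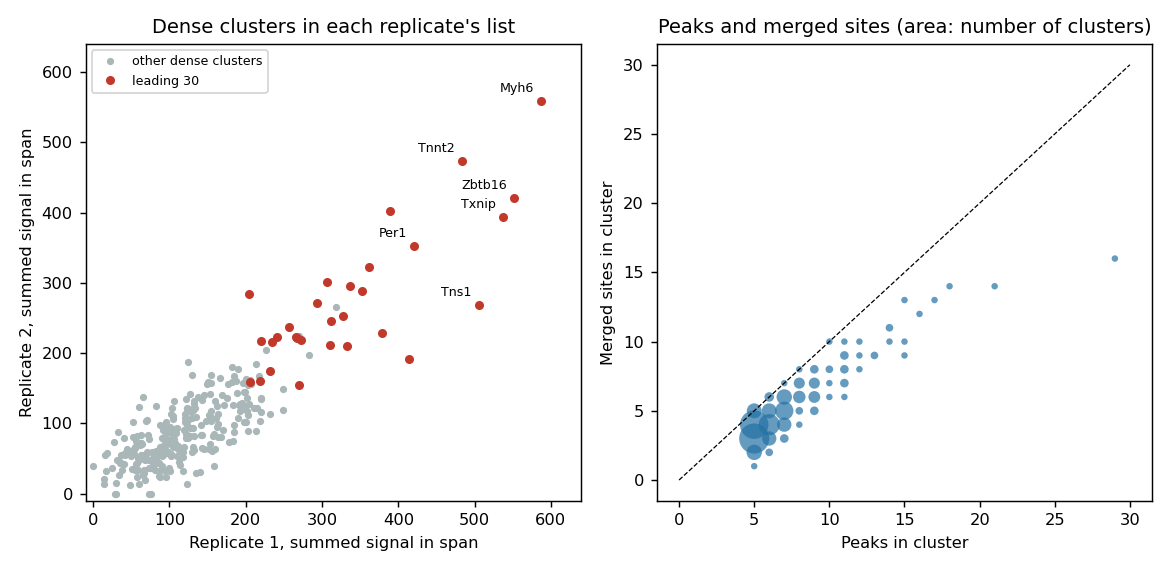
Left, summed signal of each replicate's leading peaks within the span of each of the 299 dense clusters, with the 30 highest in red and the 6 highest named. Right, peaks against merged sites per cluster, with circle area for the number of clusters and a dashed line where each peak is a site. Myh6 is the highest in both replicates (588 and 558), and most clusters lie below the dashed line.

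Single members were matched in both replicates less often than the strongest summits of clusters. A summit of both replicates within 100 bp was found for 766 of the 2035 cluster peaks (37.6%, exact 95% interval 35.5% to 39.8%). The share was 40.9% for all peaks and 49.2% for single peaks. Peaks joined in smaller clusters had 35.5% (34.4% to 36.5%), so a low share was not particular to dense clusters. By merged sites the share was 49.7% in dense clusters and 48.0% in smaller clusters of joined peaks, close to that of single peaks. The strongest summit of a cluster was matched in both replicates in 82.9% of the 299 clusters (78.2% to 87.0%), and for 52.2% of the 10123 smaller clusters and single peaks. The strongest of 5 or more peaks is higher than a single one by selection (median 64.1 against 33.2), whereas the medians over all merged sites of dense clusters and single peaks were 35.3 and 33.2. Within a signal of 40 to 60 the share was 78.6% in dense clusters and 81.0% in the others, and from 60 to 80 it was 94.7% and 95.2%. At matched signal, the intervals of dense and smaller clusters thus overlapped. The optimal list was itself made from the reads of both replicates, so none of these shares is independent evidence.

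Dense clusters lay closer to genes than single peaks, but fewer of their sites were promoters. A site was called promoter when a protein-coding TSS lay at most 1 kb from its summit, and distal otherwise. Promoters held 28.5% of cluster peaks (26.5% to 30.5%), 35.9% of peaks in clusters of 2 to 4, and 31.7% of single peaks. By merged sites the shares were 25.8% (23.5% to 28.1%), 32.3% and 31.7%. Introns held 40.1% of cluster sites against 32.9% of single peaks, and coding exons 1.46% against 0.645%. The median distance to a TSS was 5327 bp for cluster sites and 13979 bp for single peaks, and 3.41% against 13.9% lay over 100 kb away. The promoter intervals of dense clusters and single peaks do not overlap, but neighbouring sites share a gene, so no p is given.

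The clusters differed in their relation to promoters. No peak lay at a promoter in 90 clusters, most did in 71, and 138 were mixed. The median summed signal was 207 without a promoter peak, 190 with most peaks at promoters and 229 in mixed clusters. Of the 30 highest, 17 were mixed, 9 held no promoter peak and 4 were mostly promoter. The strongest summit was matched in both replicates in 77 of 90, 50 of 71 and 121 of 138 of them. Genes' TSSs were absent from 82 spans, 160 spans held those of 1 gene, and 26 those of 3 or more. The whole span lay inside 1 gene in 86 clusters, among them Zbtb16, both Tns1 clusters, Fhod3 and Rbm20.

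In 11 clusters the strongest summit was over 100 kb from a protein-coding TSS. Besides Zbtb16 the highest of these were in Fhod3, a formin that builds sarcomeric actin (139344 bp, summed signal 448), and near Sox4 (237002 bp, 342), Reep3 (113081 bp, 336) and Hif1a (110505 bp, 333). Such a distance leaves the target gene unknown.

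Chromosomes were unequal. Chromosome 19 held 3.09 dense clusters per 10 Mb and chromosome 11 held 2.70, against 0.467 on chromosome 6. These counts were divided by chromosome length alone. The density of all peaks or of genes per chromosome was not set beside them, so the inequality is not shown to be particular to dense clusters. On the X chromosome, which the rule leaves out, the largest cluster of 170 peaks had 3. Another dense cluster lay within 50 kb of 32 clusters and within 100 kb of 60.

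The gene lists show which programmes the clusters stood near. A gene was counted when a cluster peak lay nearest to its TSS within 100 kb, which held for 412 of 20698 protein-coding genes, or 1.99%. Among the 6862 genes with any peak it was 6.00%. The lists were chosen with earlier results of these data known, so their counts are descriptions and not tests. Of 30 sarcomere and Z-disc genes, 27 had a peak and 13 a dense cluster peak (43.3%). They included Myh6 with 27 peaks, Tnnt2, Myl2, Ldb3, Fhl2, Myh7, Actc1, Myl3, Mybpc3, Xirp1, Tnni3 and Synpo2l. Ldb3, a Z-disc PDZ-LIM protein, had 9 peaks with a summed signal of 406, and Actc1, cardiac actin, had 11 with 303.

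Of 23 clock and glucocorticoid genes, 9 had a dense cluster peak (39.1%), namely Per1, Zbtb16, Nr1d1, Per2, Fkbp5, Dusp1, Dbp, Klf13 and Cry2. Zbtb16 was counted with 4 of its 9 peaks, because the others lay over 100 kb from its TSS. Of 22 cardiac transcription factors, 5 did (22.7%): Myocd, the coactivator of serum response factor, with 319, Mef2d with 264, Gata5 with 221, Nkx2-5 with 155 and Gata6 with 126. In replicate 1 and replicate 2 the Nkx2-5 cluster had 156 and 60.3 and the Gata6 cluster 40.7 and 79.3, so the order of these 2 clusters differed between replicates. Among 20 calcium, channel and junction genes the 3 were Pln, Jph2, which tethers the sarcoplasmic reticulum to the cell membrane, and Cacnb2, a calcium channel subunit. Nppb, the B-type natriuretic peptide, and Hspb7, a small heat-shock protein of muscle, were the 2 of 9 hormone and stress genes.

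The other lists are given without a test between lists. The endothelial list had 4 of 28 genes (14.3%), Egfl7 with 526, Dll4, a Notch ligand, with 161, Eng, a TGF-beta co-receptor, with 104, and Klf2, a flow-responsive factor, with 70.6. Of basement membrane genes 3 of 15 had one, Hspg2, Col4a1 with 382 and Col4a2 with 66.1. Of BMP, TGF-beta and Hippo genes 4 of 22 did, Amotl2, Id1, Gadd45b and Ccn1, with 119 to 332. Actin and adhesion genes had 5 of 23, among them Tns1, Mical2, Ablim1 and Tns2, and metabolic genes 3 of 21, Slc25a4, Txnip and Fabp3. Smooth muscle had 1 of 14, Smtn with 125, and fibroblasts 1 of 15, Timp3 with 136. None of 8 epicardial, 12 macrophage and leukocyte, 8 erythroid, 13 neuronal, 13 liver and 15 skeletal muscle genes had one, although 2, 2, 1, 3, 3 and 3 of them had a peak.

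**Figure D3:**
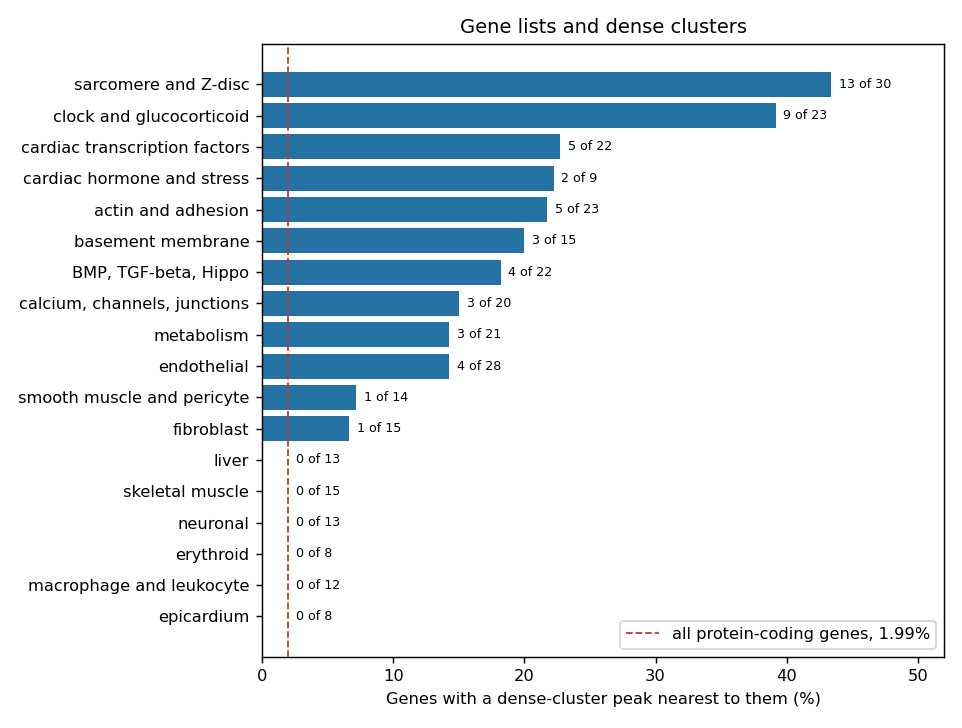
Share of each gene list on chromosomes 1 to 19 with a dense-cluster peak nearest to the gene, in percent, with the count beside each bar. The dashed line is the share of all protein-coding genes, 1.99%. The sarcomere list reaches 43.3% and the clock and glucocorticoid list 39.1%, and 6 lists are at 0.

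The DNA of distal cluster sites was richer in G and C than that of single peaks. The GC content of 200 bp at the summit was 53.2% ± 7.4 (SD over 1068 sites) in dense clusters and 49.6% ± 6.55 (4444 sites) at single peaks, with 51.1% in clusters of 2 to 4. Motif shares also differed, in both directions. GGGCGG, the SP motif, was in 13.7% of cluster sites (11.7% to 15.9%) and 7.4% of single peaks (6.65% to 8.21%), and CCACCC, the KLF motif, in 27.2% and 18.2%. In clusters of 2 to 4 they were in 9.21% (8.33% to 10.1%) and 22.3% (21.1% to 23.7%), between those shares. These 2 motifs consist of G and C for the most part. Whether base composition accounts for their shares was not tested.

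Several motifs, among them those of the cardiac factors MEF2, GATA and NKX2, were less frequent at distal cluster sites than at single peaks. The MEF2 motif was in 5.52% of them (4.23% to 7.07%) and in 9.43% of single peaks (8.58% to 10.3%). The GATA motif was in 13.1% and 20.3%, TGANTCA of AP-1 in 6.93% and 10.9%, CACTTNA of NKX2 in 9.27% and 13.3%, CATTGT of SOX factors in 11.1% and 15.8%, and TGACAG of MEIS in 18.5% and 24.2%. The TEAD motif did not differ beyond its interval, with 18.2% (15.9% to 20.6%) and 18.3%, nor did CAGCTG with 21.3% and 22.5%, or the ETS motif with 18.8% and 20.7%. Intervals also overlapped for other motifs of cardiac factors, with HAND in 16.01% and 18.05%, the CArG box of serum response factor in 1.4% and 1.58%, and the T-box motif in 1.4% and 1.01%. Of 24 motifs searched, the HNF1 site of liver and kidney was in 0 of 1068 cluster sites. This allows a share of up to 0.281% by a floor of 3 counts and up to 0.345% by the exact 95% interval. It was also in 0 of 4041 sites of clusters of 2 to 4, 0 of 4444 single peaks and 0 of all 9553 distal sites. With no match in any class, the HNF1 count cannot tell dense clusters from other sites, and no conclusion is drawn from it. Sites of a cluster are neighbours and not independent.

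The part of base composition in these shares was not tested, and the shares are also given within ranges of GC. Between 45% and 55% GC, MEF2 was in 5.74% of cluster sites (3.93% to 8.05%) and 7.98% of single peaks (6.98% to 9.08%). GATA was in 15.7% (12.8% to 19.1%) and 20.3% (18.8% to 21.9%). The intervals of both motifs overlapped. Those of MEIS, in 20.2% (16.9% to 23.8%) and 26.5% (24.9% to 28.3%), did not. Neither did those of AP-1, in 6.48% (4.56% to 8.90%) and 10.9% (9.78% to 12.2%). In the same range SP was in 5.56% and 5.10%, and KLF in 22.8% (19.3% to 26.6%) and 17.6% (16.2% to 19.1%). Below 45% GC, MEF2 was in 11.02% (6.16% to 17.8%) and 18.97% (16.5% to 21.6%), with overlapping intervals. Above 55% GC, MEF2 was in 3.49% (1.92% to 5.79%) and 2.73% (1.72% to 4.10%), the opposite order with overlapping intervals. GATA was there in 5.74% (3.67% to 8.48%) and 9.68% (7.72% to 11.9%), which also overlapped. Among sites with a signal of at least 40, MEF2 was in 6.18% (4.07% to 8.92%) and 9.56% (8.08% to 11.2%), with overlap. GATA was in 14.7% (11.5% to 18.5%) and 22.8% (20.6% to 25.1%), without overlap. Of the 289 clusters with a distal site, 34 held none of the MEF2, GATA, TEAD, CAGCTG and ETS motifs. Of the others 71 held 1 kind, 74 held 2, 68 held 3, 39 held 4 and 3 held all 5. These motifs matched 7.92%, 18.3%, 18.5%, 22.0% and 20.2% of all 9553 distal sites. The number of kinds also depends on the number of sites in a cluster. It was not counted for other clusters, so it is not shown to be particular to dense clusters.

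**Figure D4:**
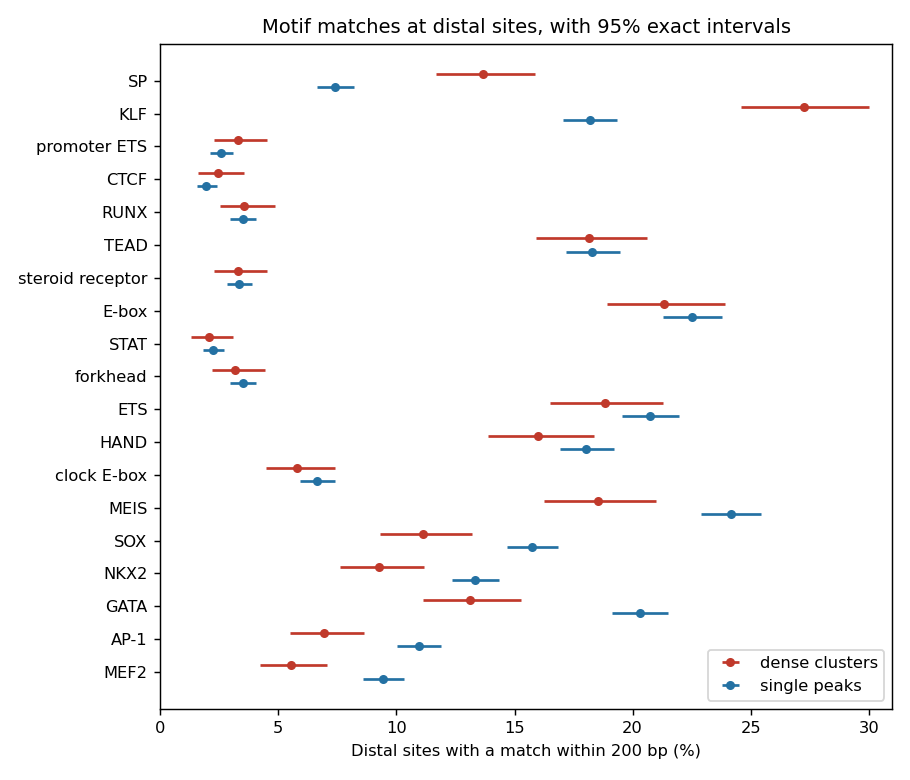
Share of 200 bp windows at distal sites with a motif match, in percent, for 1068 sites of dense clusters (red) and 4444 single peaks (blue), with exact 95% intervals, for the motifs found at 2% or more of all distal sites. SP and KLF lie higher in dense clusters and MEF2, AP-1, GATA, NKX2, SOX and MEIS lower.

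The steroid receptor palindrome was no more frequent in clusters as a whole, but its share was higher at strong sites. It was in 3.28% of the distal cluster sites and 3.33% of the single peaks. At a signal of at least 120 it was in 9 of 33 cluster sites (27.3%, 13.3% to 45.5%), against 10 of 647 (1.55%) below 40, 14 of 318 (4.4%) from 40 to 80 and 2 of 70 (2.86%) from 80 to 120. The share was thus low in all bands below 120. At a signal of at least 150 it was in 7 of 12 cluster sites (58.3%, 27.7% to 84.8%), 9 of 30 sites of clusters of 2 to 4 (30%, 14.7% to 49.4%) and 3 of 13 single peaks (23.1%, 5.04% to 53.8%), with overlapping intervals. The Zbtb16 cluster gave 3 of the 9, and without it 6 of 30 sites (20%) matched. Single peaks of at least 120 had it in 6 of 34 (17.6%, 6.76% to 34.5%) and clusters of 2 to 4 in 13 of 61 (21.3%), and these intervals overlap that of dense clusters. A higher share from 120 on was therefore not shown to be particular to dense clusters.

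**Figure D5:**
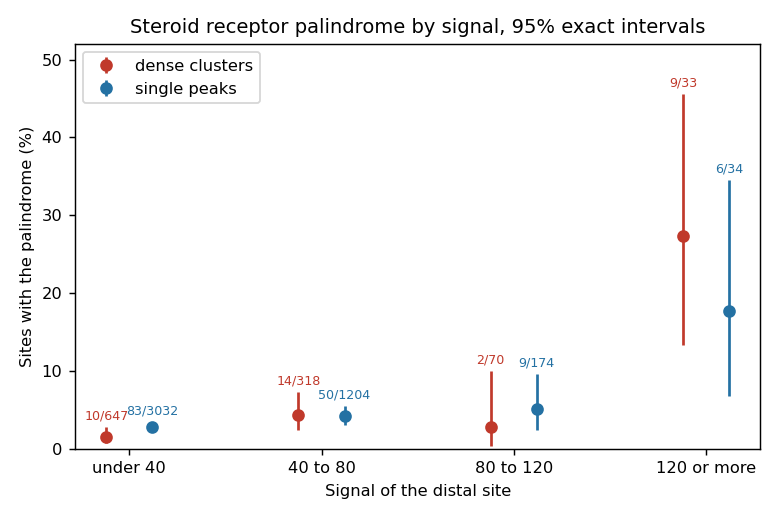
Share of distal sites with the steroid receptor palindrome in their 200 bp window, in percent, by the authors' signal of the site, for dense clusters (red) and single peaks (blue), with exact 95% intervals and counts. In dense clusters the share is 1.55% below 40 and 27.3% from 120.

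The 9 strong sites with the palindrome had a match in both replicates, which was usual for strong summits. Of clusters whose strongest signal was at least 80, 96 of 98 dense ones and 676 of 684 others had such a match for that summit. The 9 were chosen by signal in a list made from both replicates, so their recurrence is a description. The first Zbtb16 site had a signal of 178 in replicate 1 and 129 in replicate 2, ranks 1 and 4 of all peaks of those lists. The Per1 site had 161 and 139, ranks 3 and 1. The other Zbtb16 sites had 136 and 114, and 138 and 87.1. Per2 had 118 and 92.8, Fkbp5 92.2 and 77.4, and Ddit4 97.1 and 62.2. By rank, Per2 stood at 23 and 27, Fkbp5 at 68 and 58, and Ddit4 at 56 and 114. The Tns1 site, the lowest of the 9 in replicate 2, had 79.7 and 39.2, ranks 114 and 644. Weaker sites with the palindrome in dense clusters included Myh7 with 102, Usp2, a deubiquitinase gene with clock-driven expression, with 78.3, and Noct, the clock-controlled nocturnin, with 77.4. In all, 29 dense clusters held at least 1 match.

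Most strong distal cluster sites without the palindrome matched other motifs, and so did strong single peaks, where only the site near Cd180 matched none. Of all 9553 distal sites, 22.3% matched MEIS, 22.0% CAGCTG, 18.5% TEAD, 18.3% GATA and 17.5% HAND in 200 bp. SOX matched 14.1% and MEF2 7.92%. A match to at least 1 of 24 motifs is therefore common, and its share over all sites was not computed. The matches below are descriptions of single sites. The intronic Rbm20 site of 210 held MEF2, TEAD, MEIS and SOX matches. The Myl2 site of 151 held CAGCTG and MEIS, the Pln site of 147 in an intron of Cep85l held GATA and HAND, and the Fhl2 site of 134 held GATA, TEAD and HAND. The Rbm24 site of 143, at the gene for a splicing regulator of heart muscle, held CAGCTG and MEIS. The sites of 139 at Pde4dip and 125 at Myocd matched none of the 24 motifs. The second Ddit4 site of 151 held CATCTG, the HAND motif.

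The threshold of 5 peaks divides a continuous range. Just inside it, the clusters of 5 peaks with the highest summed signal were at Per2 with 387, Nfic with 352 and Abca4 with 342. Just outside, clusters of 4 peaks stood near Timp3 with 449, Ptpn1 with 420 and Klf6 with 417, all above those of 5. Clusters of 4 had a median sum of 133 and a span of 7242 bp, those of 5 had 163 and 9865 bp. The highest single peak, which no neighbour joined, had 288 inside Klf13, 19791 bp from the nearest TSS, that of E030018B13Rik. Further single peaks had 267 at Denr, 238 at Wdr77, 234 at Ostc and 231 near Piwil4. The widest internal gap exceeded 9 kb in 62 dense clusters, and in 15 a further peak lay outside the cluster within 11 kb.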

How the data were processed

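Per the labels, the authors deposited peak lists on mm10 for each replicate, for the pooled reads and for 2 IDR selections (optimal and conservative). The sources used here give no peak caller, aligner or IDR threshold. Per the file headers, replicate 1 was called with 2 control files and replicate 2 with 1. The deposited values are a signal per peak, the caller's −log10 q, and a score, which is a scaled IDR of at most 1000. They hold no read counts, so the depth is unknown. Signal was ranked and summed within a list, and replicate values are given side by side.

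Clusters, merged sites (summits within the width of a call), promoters (within 1 kb of 52092 TSSs of GENCODE M21) and motifs in 200 bp of GRCm38 were computed with Python 3.11.15, numpy 2.4.6, pandas 2.3.3 and SciPy 1.17.1. A cluster carries the name of the protein-coding gene nearest to its strongest summit, and each peak was assigned to the nearest TSS within 100 kb, which is no measured link. Replicate matches used a summit within 100 bp among the 17372 leading peaks of each replicate list. Intervals are exact Clopper-Pearson 95% intervals and cover counting error only. The design holds 1 group, so no p-value was computed. Of 315 entries in 18 gene lists, 311 lay on chromosomes 1 to 19. On simulated data all 60 planted clusters and all 2000 planted MEF2 windows were found, with matches in 25 of 2000 random windows.

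The members and lists were chosen with earlier results of these data known. Named are the nearest genes of the 30 clusters of highest summed signal, of the 10 with most peaks, the 5 widest, the 5 with most sites and the 5 most dominated by 1 peak, up to 4 members per gene list, the 5 highest clusters over 100 kb from a TSS, 3 clusters on each side of the threshold and the 5 strongest single peaks. Other genes, the palindrome and the second sequence set were chosen after their values were seen. Some of the items this rule names, and some sequences, are not reported here. The alternatives were other joining distances, peak numbers, promoter and match distances, windows, lists, q limits and each replicate alone.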

Additional observations from a re-analysis of the deposited data

Results flagged for a closer look

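The optimal list held 25 peaks on the mitochondrial genome, outside the chromosomes from which clusters were built. This signal stood in data that no comparison used. Replicate 1 held 0 mitochondrial peaks among 300000 calls, replicate 2 held 21, the pooled list 25 and the conservative list 0. They entered no dense cluster.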

How the results depend on the processing

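The number of dense clusters, 299, rested on its definition. It was 151 at a joining distance of 5 kb, 566 at 20 kb, 594 from 4 peaks, 171 from 6, 126 from merged sites, 70 from peaks of −log10 q of at least 2, and 254 in the conservative list. With 1 replicate left out it was 236 to 251. The highest summed signal was at Tns1 at 20 kb (1603 in 36 peaks) and at Myh6 in the conservative list (1431 in 43 peaks), in place of Zbtb16. With replicate 2 left out it was at Myh6 (969 in 41 peaks), and with replicate 1 left out at Myh7 (966 in 49 peaks). Zbtb16 ranked 2 and 3 there.

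The promoter share of cluster peaks, 28.5%, was 30.02% at 5 kb, 26.1% from 6 peaks, 22.9% with merged sites, 26.1% in the conservative list, 22.6% at the q limit, 23.7% and 36.3% with promoters of 500 bp and 2 kb, and 23.8% to 25.7% with 1 replicate left out. The median span was 6628 bp at 5 kb, 27977.5 bp at 20 kb, 9900 bp from 4 peaks, 19458 bp from 6, 21367.5 bp with merged sites, 20358.5 bp at the q limit, and 16425 to 17608 bp with 1 replicate left out. The median share of the strongest peak was 32.1% at 5 kb, 29.4% at 20 kb, 35.7% from 4 peaks, 26.7% from 6, 28.8% with merged sites, 30.8% in the conservative list, 28.6% at the q limit and 26.9% to 27.0% with 1 replicate left out.

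The share of strongest summits matched in both replicates was 65.2% at 50 bp, 91.0% at the distance of a call's edge, 75.9% with 10000 leading peaks and 86.6% with 30000. The share matched in replicate 1, whatever replicate 2 held, was 92.6%, and that matched in replicate 2, whatever replicate 1 held, was 90.0%. The MEF2 share was 6.54% at 5 kb, 6.52% at 20 kb, 3.48% at the q limit, 2.81% and 7.30% in windows of 100 and 300 bp, 4.53% to 5.41% with 1 replicate left out, and 6.18% at a signal of at least 40. The last of these and the palindrome settings were added after seeing the data. The palindrome share of strong sites was 58.3% from a signal of 150, 20.4% from 100 and 24.2% in 100 bp windows. The cause of these shifts was not tested.

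No paired analysis was possible because both replicates belong to 1 group. The depth of the libraries is unknown, the calls of a cluster overlap, nearest genes are not measured targets, and both replicates share a biosample.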
